A study of Homo sapiens with 2 samples.

Results

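The nuclear genes that encode subunits of the mitochondrial respiratory chain and of ATP synthase were examined in HepG2 cells, a human hepatocellular carcinoma line. A symbol rule for complex I (NDUFA, NDUFB, NDUFC, NDUFS and NDUFV genes), complex II (SDHA to SDHD), complex III (UQCR genes and CYC1), complex IV (COX4 to COX8 genes) and complex V (ATP5F1, ATP5M, ATP5P and ATP5IF1 genes) matched 269 of the 60623 annotated entries. Of these, 179 were not protein-coding and 90 were members, with 39 in complex I, 4 in complex II, 10 in complex III, 17 in complex IV and 20 in complex V. Symbols were followed as written, so that NDUFA4 and NDUFA4L2 were counted in complex I although NDUFA4 is now regarded as a complex IV subunit. The rule used names only and no measured value.

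The FFA group was wild-type HepG2 treated for 24 h with 1 mM free fatty acids, oleic and palmitic acid bound to albumin. The FFA + 9-cis-RA group was the same line with the same fatty acids plus 10 μM 9-cis-retinoic acid for 24 h, a ligand of the RXR and RAR nuclear receptors. Each group had 1 poly(A)-selected, stranded library and both carried the same batch label. The comparison was thus of 2 libraries, with and without 9-cis-RA, over a fatty acid load present in both groups and in 1 tumor line. In total, 60821539 fragments were counted without 9-cis-RA and 57669670 with it. Of 8 hepatocyte markers, 7 had at least 1000 counts, whereas TTR had 341 and 278. Their levels moved both ways, with ALB at 186609 and 112866 counts, AFP at 273242 and 134862, FGB at 1603 and 2821 and APOA1 at 109241 and 110072, and their summed share went from 1.93% to 1.67% of counts. The part of this shift in the subunit values was not tested. PTPRC, DCN and KDR, which mark leukocytes, fibroblasts and endothelium, had 0 counts in both.

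Complex I oxidizes NADH and complex II oxidizes succinate, and both pass electrons to ubiquinone. Complex III moves them on to cytochrome c, complex IV reduces oxygen, and complexes I, III and IV pump protons across the inner membrane. Complex V lets the protons back through a rotating ring of c subunits and makes ATP in its F1 head, which a peripheral stalk holds still. All of these except complex II also contain subunits encoded by mitochondrial DNA, so that nuclear and mitochondrial transcripts contribute to each one. Hepatocytes rely on this chain to burn fatty acids, since β-oxidation delivers its electrons there.

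The regions around the transcription start are shown first for the 3 well-counted members lowest in FFA + 9-cis-RA relative to FFA and for the highest one, which the values below turn on. Each is the RefSeq window on GRCh38.p14 from 250 bases before to 50 bases after the start, printed 5′ to 3′ on the strand of the gene. The windows lie at chr4:674227-674526, minus strand, for ATP5ME, at chr19:35648073-35648372, plus strand, for COX6B1, at chr1:46303448-46303747, plus strand, for UQCRH, and at chr5:53560389-53560688, plus strand, for NDUFS4. Capitals mark matches on either strand to letters typical of the sites of NRF1 (GCGCANGCG), ETS factors such as GABPA (CCGGAAG) and YY1 (AAGATGGC), factors known for respiratory gene promoters.
ATP5ME: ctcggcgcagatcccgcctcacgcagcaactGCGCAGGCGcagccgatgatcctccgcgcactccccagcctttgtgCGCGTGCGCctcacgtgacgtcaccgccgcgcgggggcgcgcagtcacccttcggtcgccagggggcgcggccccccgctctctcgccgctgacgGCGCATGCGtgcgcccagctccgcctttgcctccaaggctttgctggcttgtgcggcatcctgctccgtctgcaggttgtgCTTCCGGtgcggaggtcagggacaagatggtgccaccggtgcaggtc
COX6B1: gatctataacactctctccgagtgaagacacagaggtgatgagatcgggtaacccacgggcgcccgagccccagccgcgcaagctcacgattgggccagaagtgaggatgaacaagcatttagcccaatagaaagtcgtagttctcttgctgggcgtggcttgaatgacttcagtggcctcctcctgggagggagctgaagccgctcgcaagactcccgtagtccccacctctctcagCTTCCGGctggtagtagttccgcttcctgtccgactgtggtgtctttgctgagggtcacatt
UQCRH: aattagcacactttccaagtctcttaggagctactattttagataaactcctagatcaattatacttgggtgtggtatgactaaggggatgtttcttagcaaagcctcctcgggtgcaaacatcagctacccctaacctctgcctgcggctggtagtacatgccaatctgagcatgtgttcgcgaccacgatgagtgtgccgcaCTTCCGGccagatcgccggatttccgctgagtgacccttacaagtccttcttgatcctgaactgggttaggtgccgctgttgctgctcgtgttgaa
NDUFS4: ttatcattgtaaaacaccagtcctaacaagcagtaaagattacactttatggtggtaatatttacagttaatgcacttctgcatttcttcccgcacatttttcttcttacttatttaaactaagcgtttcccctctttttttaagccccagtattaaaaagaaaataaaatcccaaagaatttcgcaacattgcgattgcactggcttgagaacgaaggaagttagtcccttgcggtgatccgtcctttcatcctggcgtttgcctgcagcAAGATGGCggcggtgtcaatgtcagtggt

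The ATP5ME window held 3 matches to the NRF1 letters, beginning at bases -219, -173 and -78 from the start, and 1 to the ETS letters at base 4. COX6B1 and UQCRH each held 1 ETS match, at bases -12 and -46, and NDUFS4 held 1 YY1 match at base 22. RefSeq windows were found for 70 of the 90 members. NRF1 letters stood in 22 of these (31.4%), against 8.05% of all 27305 windows and 11.1% of the 15301 windows of protein-coding genes. ETS letters stood in 20 (28.6%, against 10.7% and 14.4%) and YY1 letters in 11 (15.7%, against 3.03% and 3.97%). At least 1 of the 3 was present in 41 windows (58.6%), against 19.2% of all windows and 25.7% of those of protein-coding genes. By complex, the share with any of them was 16 of 32 in complex I, 3 of 3 in complex II, 6 of 7 in complex III, 6 of 14 in complex IV and 10 of 14 in complex V. The letters were searched separately, and a match is no measured binding.

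Median log2 fold changes of members with and without each motif lay nearest for NRF1 and further apart for ETS and YY1. They were not tested against each other. For NRF1 the medians were -0.062 in 21 compared members with a match and -0.078 in 45 without. For ETS they were -0.100 in 20 and -0.054 in 46, and for YY1 -0.040 in 11 and -0.079 in 55. ATP5ME was the lowest member with NRF1 or ETS letters, and NDUFS4 the highest with YY1 letters.

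Of the 90 members, 5 had 0 counts in both libraries (COX4I2, COX6A2, COX7A1, COX7B2 and the readthrough gene NDUFC2-KCTD14) and COX8C had 2 counts in FFA and 0 in FFA + 9-cis-RA. A count of 0 allows up to 3 counts in a library. The other 84 reached the minimum of 10 counts over both libraries and were compared, and 77 of them had at least 1000 counts. Together the members took 457576 counts (0.752% of the library) in FFA and 424531 (0.736%) in FFA + 9-cis-RA. Counts were divided by DESeq2 size factors, and the log2 fold change is that of the normalized count plus 1 in FFA + 9-cis-RA against FFA. With 1 library per group, no p-value or replicate error could be given. The exact 95% interval after each value covers counting error only and compares the 2 libraries, not the conditions.

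The subunit genes as a set were slightly lower in the FFA + 9-cis-RA library, and most differences were small. Fewer cells of a kind and less RNA per cell cannot be told apart in bulk libraries. The median log2 fold change was -0.070 over the 84 compared members, with quartiles at -0.16 and 0.0044, against -0.020 over all 20431 genes compared. Of the members, 61 lay below 0 (72.6%) and 23 above, whereas 52.3% of all compared genes lay below 0. Under total-count scaling 48 lay below 0 and 36 above, with medians of -0.021 for the members and 0.029 for all genes. Among genes with at least 1000 counts, 59 of 77 members (76.6%) lay below 0 against 48.7% of the 10298 genes at that depth.

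In that deeper set the counting interval lay wholly below 0 for 40 members and wholly above 0 for 9, and it spanned 0 for 28. The same shares over all genes of that depth were 34.7% below and 34.4% above. A ratio of more than 5 to 4 between the libraries, which is 0.32 on the log2 scale, was seen downward in 6 members and upward in 3, and 75 lay within it. The background was 21.7% of compared genes lower and 14.6% higher. Counting only members with at least 1000 counts left 5 lower and 1 higher, against 9.73% and 6.06% of genes at that depth. Past 2-fold there was 1 lower member, ATP5ME, against 4.9% of compared genes, or 0.66% of the well-counted ones. The 1 higher member past 2-fold was ATP5MGL, an ATP5MG-like gene with 3 and 8 counts and a log2 fold change of 1.19 (-0.62 to 3.99), against 3.37% of compared genes and 0.204% of the well-counted ones.

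**Figure D1:**
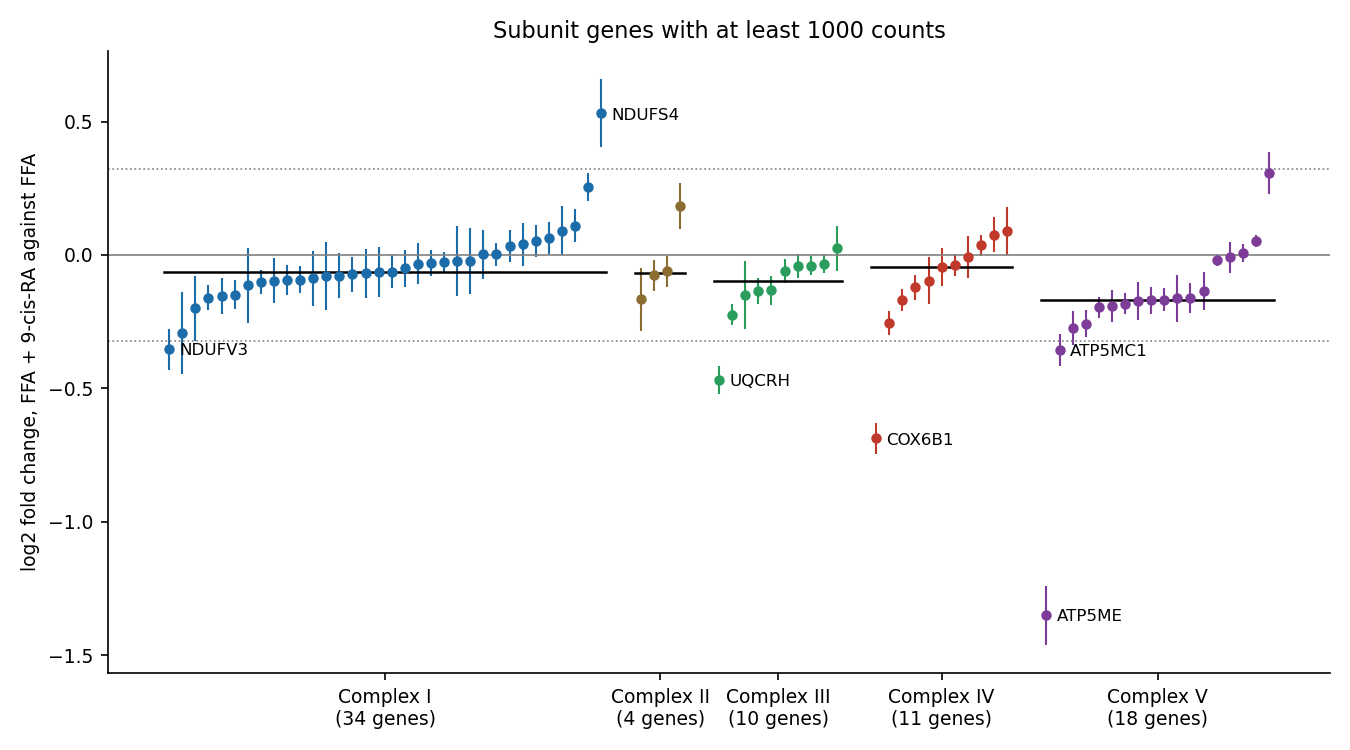
Log2 fold change of the 77 subunit genes with at least 1000 counts (y axis, FFA + 9-cis-RA against FFA), sorted within each complex (x axis). Points are genes, bars are exact 95% counting intervals, black lines are complex medians and dotted lines mark 0.32 in either direction; ATP5ME, COX6B1, UQCRH, ATP5MC1 and NDUFV3 lie below the lower line and NDUFS4 lies above the upper one.

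Complex I showed little difference as a whole. Its 38 compared genes had a median log2 fold change of -0.057, which became 0.0094 when a trend on gene length was removed, and their summed counts went from 128058 to 122536, a log2 ratio of -0.036 (-0.047 to -0.025). Of the 38, 25 lay below 0 and 13 above, and 36 lay within 0.32 of 0. The 7 core genes, which carry the flavin and the iron-sulfur clusters, had a summed log2 ratio of -0.042 (-0.062 to -0.022), and the 30 accessory genes one of -0.055 (-0.069 to -0.041). The core and accessory intervals overlapped.

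NDUFS4 was the highest well-counted gene of all 5 complexes. It encodes an accessory subunit near the NADH-oxidizing arm and lies on chromosome 5 from 53560633 to 53683338 (GRCh38, plus strand, ENSG00000164258). Its counts were 856 in FFA and 1214 in FFA + 9-cis-RA, a log2 fold change of 0.53 (0.40 to 0.66), and it ranked 139th highest among the 10298 well-counted genes. Over all alternatives its value ranged from 0.52 to 0.65. Within complex I, NDUFA4 followed with 5530 and 6479 counts (0.26, 0.20 to 0.31), whereas its paralog NDUFA4L2, known as a hypoxia-induced gene, had 33 counts in each library. NDUFA4 therefore made up 99.4% and 99.5% of that pair.

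At the other end, NDUFV3, an accessory subunit of the NADH-oxidizing arm, went from 3118 to 2395 counts (-0.35, -0.43 to -0.28). NDUFA3 was next with 784 and 628 (-0.29, -0.45 to -0.14), and NDUFB1 had 1207 and 1031 (-0.20, -0.32 to -0.08). NDUFA3 and NDUFB1 are small accessory subunits of the membrane arm. NDUFS4 and NDUFV3, which were named as the highest and lowest members of complex I, both sit in the peripheral arm.

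Of the core genes, the following lay close to 0. NDUFV1, which binds the flavin, had 11503 and 11070 counts (-0.03, -0.07 to 0.01), and NDUFS1, the largest iron-sulfur subunit, had 8704 and 8559 (0.0034, -0.04 to 0.05). NDUFS3 and NDUFS8 were slightly lower, with 5335 and 4902 counts (-0.09) and 3977 and 3711 counts (-0.07), and NDUFS7, an iron-sulfur subunit at the ubiquinone site, was higher with 4134 and 4375 (0.11, 0.05 to 0.17).

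NDUFV2, another core gene, had 93 and 103 counts, far fewer than its partners. Other genes overlapped 84.7% of its coding bases on the same strand, and fragments in such stretches were not counted. Its pseudogene NDUFV2P1 had 151 and 112 counts, and adding them moved the log2 fold change from 0.17 (-0.24 to 0.60) to -0.15. The direction of NDUFV2 was thus not resolved. NDUFA7 (43 and 44 counts, 78.3% of coding bases overlapped) and NDUFA13 (158 and 144 counts, 55.2%) were affected in the same manner, and both intervals spanned 0.

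In complex II, 3 genes were lower and 1 was higher in FFA + 9-cis-RA, and none of the 4 lay past 0.32. SDHB, the iron-sulfur subunit, had 2139 and 2384 counts (0.18, 0.10 to 0.27). SDHA, the flavoprotein that oxidizes succinate, had 1249 and 1092 (-0.17, -0.28 to -0.05). The catalytic pair thus pointed in opposite directions between these libraries. The membrane anchors SDHC, with 4828 and 4491 counts (-0.08, -0.14 to -0.02), and SDHD, with 5055 and 4752 (-0.06, -0.12 to -0.0041), were both slightly lower.

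The SDHA value rests on few counted bases. Other genes overlapped 84.5% of its coding bases, and its 4 named pseudogenes together had 2883 and 2778 counts, more than the gene itself. With those added, its log2 fold change was -0.07. The summed counts of complex II were 13271 and 12719, a log2 ratio of -0.034 (-0.069 to 0.0015) whose interval included 0.

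In complex III, 9 of 10 genes were lower in FFA + 9-cis-RA, and the larger differences were in the small subunits. The complex median was -0.096, and the summed counts were 78990 and 71467, a log2 ratio of -0.12 (-0.13 to -0.10). The electron-carrying pair CYC1, which holds heme c1, and UQCRFS1, the Rieske iron-sulfur protein, had 13177 and 12640 counts (-0.03) and 8458 and 8067 counts (-0.04), and both intervals spanned 0. The core proteins UQCRC1 (13610 and 12985 counts, -0.04) and UQCRC2 (8155 and 7681 counts, -0.06) were also close to 0. Among these 4, CYC1, UQCRC1 and UQCRFS1 turned positive once the length trend was removed, with values of 0.060, 0.010 and 0.014.

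The 6 small subunits together had a log2 ratio of -0.21 (-0.24 to -0.19), whose interval did not overlap that of the core proteins (-0.047, -0.075 to -0.020) or of CYC1 and UQCRFS1 (-0.036, -0.063 to -0.0081). UQCRH, the hinge protein beside cytochrome c1, was lowest with 7084 and 5027 counts (-0.47, -0.52 to -0.41). It lies on chromosome 1 from 46303698 to 46316776 (plus strand, ENSG00000173660), and its ETS match is in the window printed above. UQCRQ had 11800 and 9910 counts (-0.22, -0.26 to -0.19), UQCRB 7310 and 6529 (-0.14, -0.18 to -0.09) and UQCR10 6081 and 5440 (-0.13, -0.19 to -0.08). UQCR11 was the exception, with 2259 and 2254 counts (0.02, -0.06 to 0.11), and other genes overlapped all of its coding bases (100%).

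UQCRHL, a near-identical retrocopy of UQCRH, had 1056 and 934 counts (-0.15, -0.28 to -0.02). Fragments that matched both equally well were not counted, so neither count is complete. UQCRH took 87.0% of the pair in FFA and 84.3% in FFA + 9-cis-RA, and the pair had a log2 ratio of -0.42 (-0.47 to -0.37). Without UQCRH the complex III sum stood at -0.086 (-0.10 to -0.071). With the length trend removed, UQCRH stood at -0.35, UQCRQ at -0.14, UQCRHL at -0.063 and UQCR10 at -0.015, all nearer 0. UQCRB moved away from 0 to -0.17, and UQCR11 stood at 0.11.

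In complex IV 1 gene stood apart, COX6B1, which encodes a subunit facing the intermembrane space where cytochrome c docks. COX6B1 lies on chromosome 19 from 35648323 to 35658782 (plus strand, ENSG00000126267), and its counts were 6105 and 3719. Its log2 fold change of -0.69 (-0.75 to -0.63) was a 1.61-fold lower level and ranked 230th lowest among well-counted genes. Over the alternatives it ranged from -0.69 to -0.58. The summed counts of complex IV were 66972 and 60383, a log2 ratio of -0.12 (-0.14 to -0.11), which was -0.076 (-0.092 to -0.059) without COX6B1.

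The other common subunits of complex IV lay within 0.32 of 0. COX7C had 8813 and 7237 counts (-0.26, -0.30 to -0.21) and COX5B, a zinc-binding subunit, had 10348 and 9035 (-0.17, -0.21 to -0.13). COX4I1, a regulatory subunit, and COX5A were near 0, with 9531 and 9109 counts (-0.04, -0.08 to 0.0039) and 3259 and 3102 counts (-0.04, -0.11 to 0.03). On the higher side stood COX7A2 with 1954 and 2042 counts (0.09), COX6A1 with 3711 and 3837 (0.08) and COX8A with 10423 and 10486 (0.04), none past 0.10. The complex median was -0.041, and it changed sign to 0.019 when the length trend was removed and to 0.0085 under total-count scaling.

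For each common subunit with a tissue-restricted paralog, the common form took nearly all counts. COX4I1, COX6A1 and COX7B took 100% of their pairs in both libraries. COX8A took 99.98% in FFA and 100% in FFA + 9-cis-RA. COX6B1 took 99.5% and 98.9%, because the testis-type COX6B2 had 33 and 42 counts (0.37, -0.32 to 1.08), with all of its coding bases (100%) overlapped by other genes. The muscle-type COX7A1 had 0 counts, and COX7A2L, a factor of supercomplex assembly, went from 7917 to 7141 counts (-0.12, -0.17 to -0.07). HepG2 thus expressed the common set of complex IV forms under both treatments.

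Complex V had the lowest median of the 5 complexes, -0.17, with 16 of 20 genes below 0. The median was -0.12 under total-count scaling and -0.096 with the length trend removed, below 0 in all 16 alternatives. The summed counts were 170285 and 157426, a log2 ratio of -0.086 (-0.096 to -0.076). The sum was closer to 0 than the median because ATP5F1A and ATP5F1B held many of the counts, and without both it was -0.16 (-0.18 to -0.15).

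ATP5ME, the e subunit of the membrane part where ATP synthase forms dimers, was the lowest member of all 5 complexes. It lies on chromosome 4 from 672436 to 674330 (minus strand, ENSG00000169020), and its counts were 2413 in FFA and 928 in FFA + 9-cis-RA. The log2 fold change was -1.35 (-1.46 to -1.24), a 2.55-fold lower level, and it ranked 21st lowest of the 10298 well-counted genes. Its value lay between -1.36 and -1.23 over the alternatives. No other same-strand gene overlapped its coding bases (0%). Without ATP5ME the complex V sum was -0.074 (-0.084 to -0.064).

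Its neighbors in the membrane part were not lowered to that extent. ATP5MG, the g subunit that pairs with the e subunit, had 2216 and 1943 counts (-0.16, -0.25 to -0.07). ATP5MK and ATP5MJ, small proteins of the dimer region, had 6547 and 5707 (-0.17, -0.22 to -0.12) and 3403 and 3039 (-0.14, -0.21 to -0.06). ATP5MF, the f subunit, was higher with 2441 and 2962 counts (0.31, 0.23 to 0.38). Other genes overlapped 44.6% of its coding bases, and its 6 named pseudogenes had 298 and 199 counts. With those added, its log2 fold change was 0.23. ATP5ME and ATP5MF, named as the lowest and highest members of complex V with at least 100 counts, both encode small membrane subunits. ATP5MF-PTCD1, a readthrough over ATP5MF, had only 19 and 11 counts (-0.71, -1.98 to 0.38).

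The F1 head split into the abundant pair and the rest. ATP5F1A and ATP5F1B, the α and β subunits that form the catalytic ring, had 32707 and 33300 counts (0.05, 0.03 to 0.08) and 39493 and 38212 counts (-0.020, -0.04 to 0.00039). ATP5F1C, the rotating γ subunit, had 11374 and 9836 (-0.18, -0.22 to -0.14). ATP5F1D and ATP5F1E, the δ and ε subunits, had 9495 and 8291 (-0.17, -0.21 to -0.13) and 4634 and 3982 (-0.19, -0.25 to -0.13). The 3 intervals of the central stalk overlapped each other and lay below those of both ring subunits.

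All 4 peripheral stalk genes were lower, ATP5PB with 10779 and 9230 counts, ATP5PD with 5381 and 4719, ATP5PF with 3508 and 3055 and ATP5PO with 4553 and 3692. Their log2 fold changes ran from -0.27 for ATP5PO to -0.16 for ATP5PD, and their sum had a ratio of -0.20 (-0.23 to -0.17). ATP5IF1, the inhibitor that blocks ATP hydrolysis by the enzyme, was lower in a like range, with 6920 and 5678 counts (-0.26, -0.31 to -0.21).

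The c ring is built from 1 mature protein encoded by 3 genes. ATP5MC1 had 5321 and 4077 counts (-0.36, -0.42 to -0.30), whereas ATP5MC2 had 5026 and 4901 (-0.0087, -0.07 to 0.05) and ATP5MC3 had 14052 and 13855 (0.0073, -0.03 to 0.04). ATP5MC3 took 57.6% of the set in FFA and 60.7% in FFA + 9-cis-RA, and ATP5MC1 took 21.8% and 17.9%. The sum of the 3 had a log2 ratio of -0.068 (-0.094 to -0.042). Normalized counts differed by -1154 for ATP5MC1, -29.9 for ATP5MC2 and 70.2 for ATP5MC3, so that the lower sum lay in ATP5MC1.

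**Figure D2:**
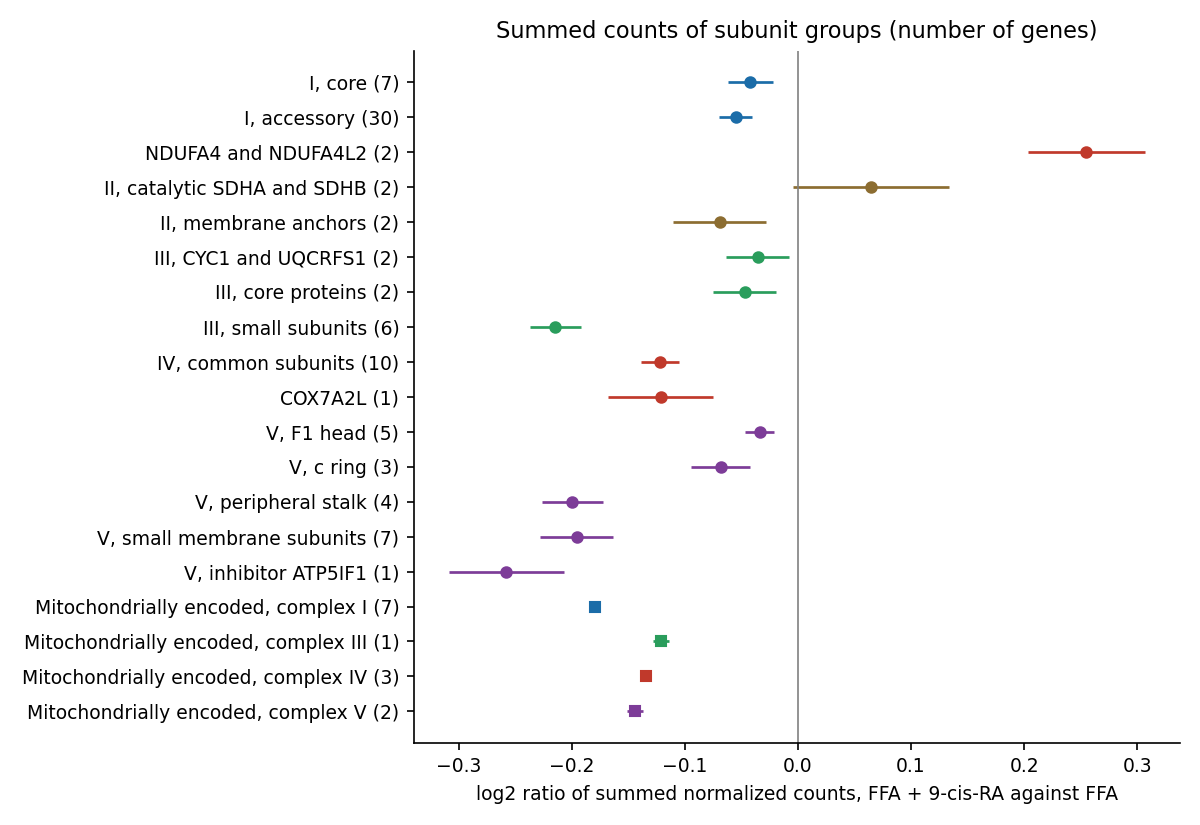
Log2 ratio of summed normalized counts, FFA + 9-cis-RA against FFA (x axis), for groups of subunit genes (y axis, number of genes in brackets), with exact 95% counting intervals as bars and color by complex. Circles are nuclear genes and squares mitochondrially encoded ones, NDUFA4 and NDUFA4L2 are drawn in the complex IV color, and the small subunits of complex III (-0.21) and the peripheral stalk (-0.20) lie to the left of the core and catalytic groups of their complexes.

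The 5 complexes were then set side by side. Medians ran from -0.17 in complex V and -0.096 in complex III through -0.069 in complex II and -0.057 in complex I to -0.041 in complex IV, the signs of complexes I and IV depending on the length trend and that of complex IV also on total-count scaling. Without the members whose coding bases were overlapped, complex IV stood at -0.096 and was no longer nearest 0. Summed counts gave another order, with complexes III and IV lowest at -0.12 each and complexes I and II nearest 0. The sum over all compared genes had a log2 ratio of -0.049, so complexes I (-0.036) and II (-0.034) lay above it. Their shares of the library went from 0.211% to 0.212% and from 0.0218% to 0.0221%. These sums count NDUFA4 and NDUFA4L2, a pair with a log2 ratio of 0.25, in complex I. The other complex I genes lay on either side of -0.049, the core at -0.042 and the accessory genes at -0.055. The place of complex I above all genes thus depended on that pair. Genes of a complex are not replicates, so the complexes were not tested against each other.

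Member genes were short, with a median exonic length of 2288.5 bases against 3759 over all compared genes. Removing a trend on length over all genes left a median of -0.021 for the members and 0.0061 for all genes, with 48 members below 0 and 36 above. Removing a trend on GC content left -0.036 with 52 below 0, and a trend on mean expression -0.071 with 58 below 0. Across the 84 compared members themselves, log2 fold change and log length had a Spearman rho of 0.024, a description over genes that share both libraries. Over all genes with at least 1000 counts the rho with length was 0.196, and over the members at that depth it was 0.065. What part length played in the lower counts was not tested.

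**Figure D3:**
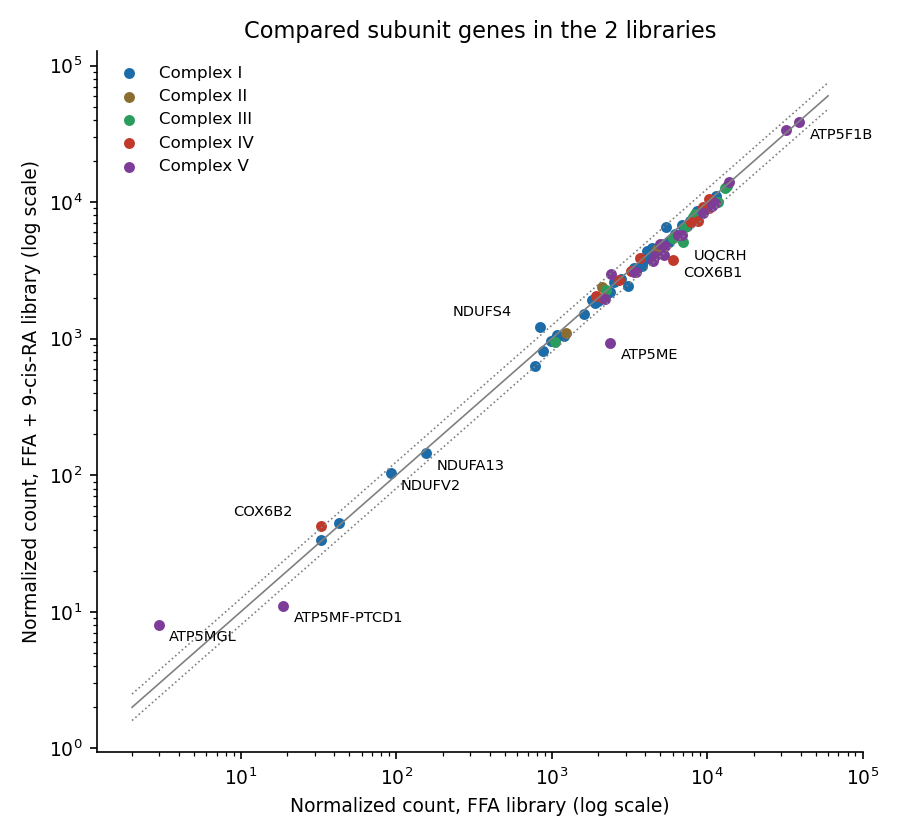
Normalized counts of the 84 compared subunit genes in the FFA library (x axis, log scale) and the FFA + 9-cis-RA library (y axis, log scale), 1 point per gene, with the line of equality and dotted lines at a ratio of 5 to 4. Most genes lie inside the dotted lines, ATP5ME, COX6B1 and UQCRH lie below and NDUFS4 above, and 7 genes have under 1000 counts.

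Levels between genes were compared per kilobase of exonic length, scaled to equal library totals (FPKM). That length covers all annotated exons of a gene, such as 10908 bases for ATP5F1A and 2238 for ATP5F1B. Levels between genes and complexes therefore also depend on the annotation. COX8A was highest with 347 in FFA and 368 in FFA + 9-cis-RA, followed by ATP5F1B with 290.1 and 296, and NDUFS5, an accessory subunit of complex I, with 171 and 160.1. CYC1 led complex III with 110.4 and 112, and SDHD led complex II with 29.8 and 29.5. Medians over the compared genes were 57.5 and 55.2 in complex III, 36.5 and 36.7 in complex IV, 30.8 and 25.6 in complex V, 14.1 and 15.8 in complex I, and 9.95 and 11.1 in complex II. The order of complexes was the same in both libraries. The lowest genes of complex II and complex III were SDHA, at 2.34 and 2.16, and UQCRHL, at 7.96 and 7.43, both of which lose fragments to overlapping or near-identical sequence. The lowest compared genes elsewhere were NDUFA4L2 at 0.193 and 0.204, COX6B2 at 0.146 and 0.196 and ATP5MGL at 0.0617 and 0.174 in complexes I, IV and V.

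**Figure D4:**
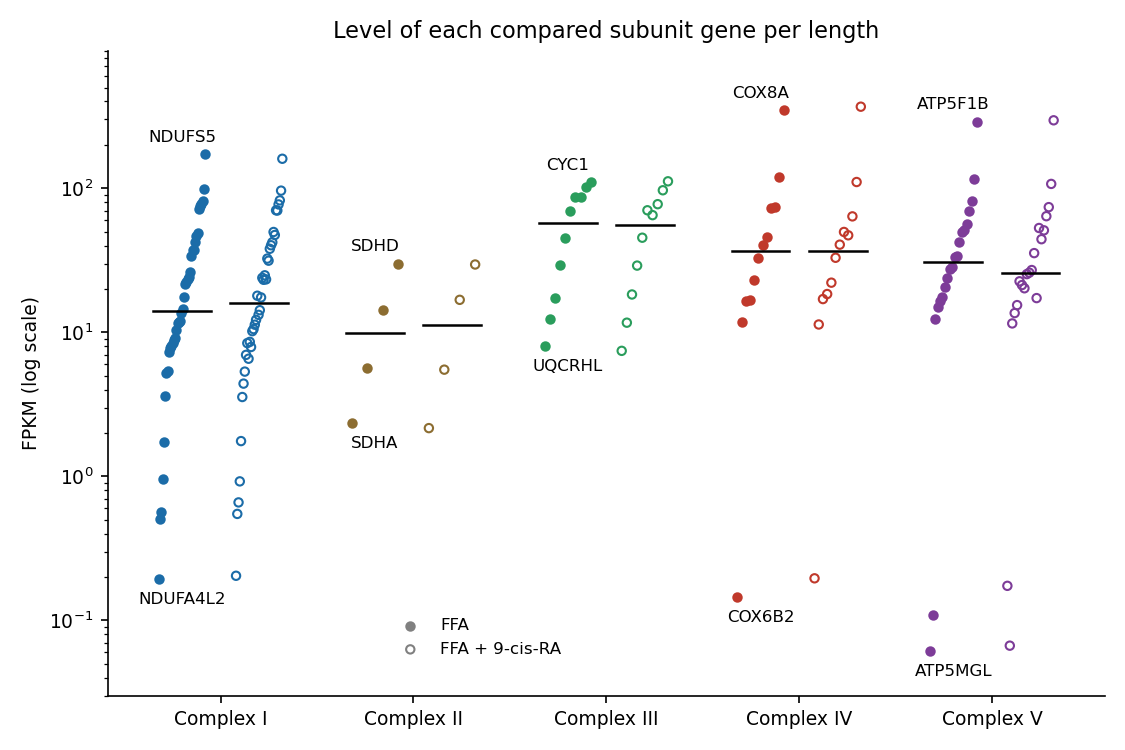
Level per kilobase of exonic length (FPKM, y axis, log scale) of each compared subunit gene by complex (x axis), filled circles for FFA, open circles for FFA + 9-cis-RA and black lines for medians. COX8A (347 in FFA) is highest and ATP5MGL (0.0617) lowest, and the medians of the 2 libraries differ most in complex V (30.8 in FFA and 25.6 in FFA + 9-cis-RA).

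Counting itself limited several members. Other genes overlapped at least 50% of the coding bases of 15 members on the same strand, among them COX8A (55.1%), ATP5PO (62.6%), NDUFB8 (85.2%) and NDUFC2 (76.9%), where fragments shared with the other gene were not counted. Pseudogenes were named after 49 members, 188 in all, and together they had 4452 and 4036 counts, which was 0.973% and 0.951% of the members' counts. Without the 15 overlapped members the median was -0.096 in complex IV in place of -0.041 and -0.13 in complex III in place of -0.096. All complex medians stayed below 0 without them and with the pseudogene counts added.

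The 13 subunits encoded by mitochondrial DNA were all lower too, with log2 fold changes from -0.28 for MT-ND4L to -0.07 for MT-ND6. Their median was -0.13, and their sum went from 8.67% to 8.07% of counts, a log2 ratio of -0.15 against -0.081 (-0.087 to -0.074) for the nuclear members.

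Among genes outside the name rule, NDUFAB1, the acyl carrier protein that is also a complex I subunit, had 2952 and 2644 counts (-0.13). CYCS, which encodes cytochrome c, had 26664 and 27056 (0.05), and DMAC2L, a factor associated with ATP synthase, had 1307 and 1037 (-0.31).

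The factors that assemble the complexes were counted in the same manner. Their counts past 0.32 are to be read against the 9.73% of well-counted genes and 21.7% of compared genes that were lower by that much. Counts below 0, here and in the lists that follow, are to be read against 52.3% of compared and 48.7% of well-counted genes. Of 17 complex I assembly factors, 12 lay below 0, 2 of them past 0.32, NDUFAF8 with 2456 and 1656 counts (-0.54) and NDUFAF3 with 2153 and 1476 (-0.52), and the highest was TIMMDC1 (0.17). Of 25 complex IV assembly factors, 18 lay below 0 and 4 past 0.32, the lowest being COA3, needed for early COX1 synthesis, with 4107 and 2578 counts (-0.64), and the highest COX19 (0.19). Of the 4 complex II factors 3 lay below 0, and none passed 0.32. The 9 complex III factors were balanced, with 4 below 0, from UQCC2 (-0.31) to LYRM7 (0.27), whereas all 4 complex V factors lay above 0, led by ATPAF2, a chaperone of the F1 α subunit, with 553 and 725 counts (0.42). Of these 4, the interval of ATPAF1 (0.02, -0.05 to 0.09) spanned 0 and 1 gene passed 0.32, against 6.06% of well-counted genes.

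The pathways that feed the chain were mixed. Of the 14 tricarboxylic acid cycle genes, 7 lay below 0 and 7 above, from FH, which hydrates fumarate, with 5820 and 4494 counts (-0.35) to CS, citrate synthase, with 27428 and 35809 (0.41). Of the 7 compared genes that pass electrons to ubiquinone outside complexes I and II, 5 lay below 0, with SQOR, sulfide quinone oxidoreductase, at 598 and 443 counts (-0.40) and ETFDH, which takes electrons from fatty acid oxidation, at 1086 and 1285 (0.27). In coenzyme Q synthesis 7 of 13 genes lay below 0, from PDSS1 (-0.31) to COQ10A (0.47).

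Of the 14 compared regulators of mitochondrial gene expression, 10 lay below 0, with TFB1M, a methyltransferase for mitochondrial ribosomal RNA, lowest at 2965 and 1852 counts (-0.65) and POLG, the mitochondrial DNA polymerase, highest at 3443 and 4154 (0.30). Of the 23 compared genes of mitochondrial protein import, 17 lay below 0, from HSPE1, a matrix chaperonin, with 12188 and 9321 counts (-0.36) to TIMM22 (0.19). The subunit genes' share below 0 (72.6%) was close to that of the import genes (73.9%) and of the regulators (71.4%). Over all compared genes that share was 52.3%.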

How the data were processed

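RNA-seq of 2 HepG2 libraries was re-analyzed. Values deposited by the authors were unnormalized counts of read pairs per gene, made with featureCounts 2.0.1 on GRCh38 with strand setting 2. Read pairs that mapped to several places or overlapped several genes were not counted. The aligner was not given in the sources used here, and per the labels DESeq2 was among the authors' tools.

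Symbols and gene classes came from GENCODE release 29 and name tables. Size factors were computed with DESeq2 1.42.0, with TMM from edgeR 4.0.16 as an alternative, in R 4.3.3. Log2 fold changes used a pseudocount of 1 over genes with at least 10 counts, which understates changes at low counts. Exact 95% Clopper-Pearson intervals were computed with Python 3.11.15, scipy 1.17.1 and statsmodels 0.14.6. Trends were lowess fits with span 0.3. The steps were tested on simulated data.

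The members, lists, fold threshold and tests were chosen with earlier results of these data known. Groups of subunits within complexes, the count minimum of 1000 and the 4 printed windows were chosen after values were seen. Named genes were the 3 highest and 3 lowest of each complex with at least 100 counts, core genes, paralog sets, readthroughs, level extremes, and the extremes of the other lists, and some further members were named after their values were seen. The values of 1 member are not reported here.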

Additional observations from a re-analysis of the deposited data

How the results depend on the processing

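Processing alternatives were 14 planned and 2 added after seeing the data, other scaling factors, pseudocounts, count minimums, trends and member sets. The median over all members stayed below 0 in all 16, from -0.077 to -0.021. With the length trend removed, the median was 0.0094 in complex I, -0.028 in complex III, 0.019 in complex IV and -0.096 in complex V. Under total-count scaling, which moved the median of all genes by 0.049, it was -0.047 in complex III and -0.12 in complex V. The other 90 of 96 median values stayed within the counting interval of the middle members.

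With at least 1000 counts required, an added alternative, 1 member was higher by more than 0.32 on the log2 scale in place of 3. Members past that threshold numbered 6 lower and 3 higher as reported, 6 and 4 with TMM, 4 and 4 under total-count scaling, and 5 and 4 with either the length or the GC trend removed. Over 51 named members, 55 of 799 values lay outside the member's counting interval, and none of the members past 0.32 changed sign. Values on both sides of 0 were given by 12 named members near 0, ATP5F1B, ATP5MC2, ATP5MC3, COX4I1, COX5A, CYC1, NDUFS1, NDUFV1, NDUFV2, SDHD, UQCRC1 and UQCRFS1. No library could be left out and no paired analysis was possible because each group had 1 library. A difference of any size between cultures therefore cannot be told apart from the treatment.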
